A study of Mus musculus with 6 samples.

Results

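Six2 to Six6 and Eya1 to Eya4 code for proteins that work as pairs. SIX-family proteins are homeodomain transcription factors that bind DNA, and EYA proteins are coactivators and protein phosphatases that SIX-family proteins bring to their target genes. The 9 members described here are Six2, Six3, Six4, Six5 and Six6, and Eya1, Eya2, Eya3 and Eya4, out of 21755 protein-coding genes on the autosomes and the X chromosome. They were taken as named genes in the GENCODE annotation of GRCm38 (mm10). A peak was assigned to a member when it overlapped the gene body or the 5 kb on either side. It was also assigned when it lay up to 100 kb from the body and its nearest protein-coding start site was that of the member.

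The mark that was mapped is H3K4me1, the monomethylated form of lysine 4 of histone H3, which is found at enhancers and on the shoulders of promoters. CUT&Tag was used, in which an antibody tethers a transposase to the mark and the freed fragments are sequenced. The 3 samples were whisker pads of wild-type B6/J2 mice at embryonic day 12, microdissected and dissociated to single cells, numbered 1, 2 and 3 as in the titles. No label says whether the pads came from separate embryos, so the SD may be technical. IgG was run on the 3 pads too, but those samples were not analysed here and the values have no antibody control beside them. For replicates 2 and 3 the source name is adult kidney where the title says whisker pad. The titles were followed. Of 10 genes of the adult kidney, 2, 2 and 1 had a peak in the body or its 5 kb flanks in replicates 1, 2 and 3, where 24.9, 22.6 and 19.6% of all protein-coding genes had one, and 8 of them, with Umod, Nphs1 and Slc34a1, had none in any. Slc12a1 had a peak in each replicate and Aqp2 in replicates 1 and 2. Of 12 genes of facial mesenchyme 12, 10 and 12 had one, beside the same shares. The kidney count was thus near the share of all genes in replicates 1 and 2, and neither list was tested.

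In the animal, SIX-family and EYA proteins act early in sensory organs, kidney, muscle and the face, together with PAX and DACH proteins in what is often called the retinal determination network. Six2 is known for frontonasal mesenchyme and for the progenitors of the nephron. Six3 and Six6 belong to the forebrain and the eye. Six4 acts in muscle and sensory ganglia, and Six5 lies next to Dmpk, the gene whose repeat is expanded in myotonic dystrophy. Eya1 is required for ear, kidney and cranial ganglia, and Eya4 is a deafness gene.

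The sequences below are those on which the highest pileups stood. Shown first is the leading region of each member with a peak in all 3 replicates, the one whose percentiles of total signal average highest over the replicates. The other 3 regions shown are among those whose highest pileups lay within 100 bp of each other in the 3 replicates. All are plus strand, GRCm38, with the distance from the 5′ start site of the gene, negative where upstream. Capitals mark the bases of highest pileup. They are those of all 3 replicates, except in the leading regions of Six2, Eya1, Eya2 and Eya4. There a single replicate is marked, 1 for Six2 and Eya2 and 3 for Eya1 and Eya4. In these regions of Eya1, Eya2 and Eya4, the tallest pileups of the other replicates lie outside the window shown. In the Six2 window only replicate 1 is marked, and the tallest pileups of replicates 2 and 3 over this region, at chr17:85690844-85690847 and chr17:85690834-85690837, lie in the window as well. No window shown overlaps an annotated exon of its member or an untranslated region.
Six2 -2.52 kb, chr17:85690700-85690880: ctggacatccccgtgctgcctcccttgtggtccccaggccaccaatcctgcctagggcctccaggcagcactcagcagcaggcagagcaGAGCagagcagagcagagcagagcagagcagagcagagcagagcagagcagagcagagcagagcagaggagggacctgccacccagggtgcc
Six4 2.73 kb, chr12:73110633-73110830: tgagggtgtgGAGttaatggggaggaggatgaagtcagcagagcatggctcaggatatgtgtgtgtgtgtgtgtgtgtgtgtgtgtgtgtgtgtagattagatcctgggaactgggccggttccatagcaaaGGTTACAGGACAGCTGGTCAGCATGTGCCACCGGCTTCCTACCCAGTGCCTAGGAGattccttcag
Eya1 124 kb, chr1:14186094-14186274: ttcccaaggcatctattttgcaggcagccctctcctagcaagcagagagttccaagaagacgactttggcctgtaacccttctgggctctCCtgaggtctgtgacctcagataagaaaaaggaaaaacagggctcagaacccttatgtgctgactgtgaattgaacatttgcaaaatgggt
Eya2 4.92 kb, chr2:165599857-165600037: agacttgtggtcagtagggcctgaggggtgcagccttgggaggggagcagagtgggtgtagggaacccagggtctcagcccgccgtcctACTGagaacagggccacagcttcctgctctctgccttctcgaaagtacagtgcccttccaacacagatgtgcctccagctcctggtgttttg
Eya4 191 kb, chr10:23159337-23159517: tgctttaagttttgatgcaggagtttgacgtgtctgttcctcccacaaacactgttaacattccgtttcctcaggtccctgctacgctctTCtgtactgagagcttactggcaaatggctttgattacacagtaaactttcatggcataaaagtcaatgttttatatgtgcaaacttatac
Six2 -29.5 kb, chr17:85717677-85717857: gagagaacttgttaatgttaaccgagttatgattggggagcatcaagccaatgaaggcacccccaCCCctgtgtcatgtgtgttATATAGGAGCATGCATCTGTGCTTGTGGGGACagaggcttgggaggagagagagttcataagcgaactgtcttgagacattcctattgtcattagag
Six2 -97.9 kb, chr17:85786106-85786286: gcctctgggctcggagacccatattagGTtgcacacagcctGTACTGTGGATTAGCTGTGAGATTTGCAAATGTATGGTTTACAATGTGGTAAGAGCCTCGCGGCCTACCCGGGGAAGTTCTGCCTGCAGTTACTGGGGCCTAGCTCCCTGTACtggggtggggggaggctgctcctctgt
Eya1 212 kb, chr1:14098002-14098182: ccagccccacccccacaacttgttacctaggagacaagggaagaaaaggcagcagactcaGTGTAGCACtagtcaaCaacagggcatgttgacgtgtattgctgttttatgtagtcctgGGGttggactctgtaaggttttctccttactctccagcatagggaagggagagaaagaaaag

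Of the leading windows, that of Six2 was 65.2% GC, with 47.5% of its bases marked as repeat in the reference, and it runs through a short tandem repeat. The windows at -29.5 and -97.9 kb from Six2 held 11.05 and 12.7% repeat, and that of Eya4 held 0%.

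Of the 9 members, 6, 7 and 5 had a peak in the body or its 5 kb flanks in replicates 1, 2 and 3, and 5 had one in all 3 replicates. Over all protein-coding genes the share with a peak was 24.9, 22.6 and 19.6% in replicates 1, 2 and 3, and 15.5% in all 3 replicates. The 5 were Six2, Six4, Eya1, Eya2 and Eya4. Six6 and Eya3 had no peak in any replicate, as was the case for 71.2% of all genes. Long genes carry peaks more often, so the members were also read by length. Of the 5 members under 20 kb, Six2 to Six6, 2 had a peak in all replicates, against 8.35% of genes of that length. Eya3 is the 1 member of 20 to 100 kb, where 16.5% of genes did. All 3 members over 100 kb, Eya1, Eya2 and Eya4, had a peak in all replicates, against 46.0% of genes of that length. The members were chosen with results of these data known, and the difference from the background was not tested.

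The members took 39, 32 and 31 peaks in replicates 1, 2 and 3, on average 34 ± 4.36 (SD, n = 3). Six2, Eya1, Eya2 and Eya4 together held 36, 27 and 30 of them. The plot of peaks by gene shows the 9 members in 2 sets, 4 genes at 6 or more peaks in every replicate and 5 genes at 2 or fewer. Six2 had 8, 7 and 7 peaks, Eya1 had 7, 6 and 8, Eya2 had 12, 7 and 6, and Eya4 had 9, 7 and 9 in replicates 1, 2 and 3. These 4 overlap in their counts and have no order beyond the spread. Eya2 varied most, at 8.33 ± 3.21 peaks on average (SD, n = 3), replicate 1 being high.

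**Figure D1:**
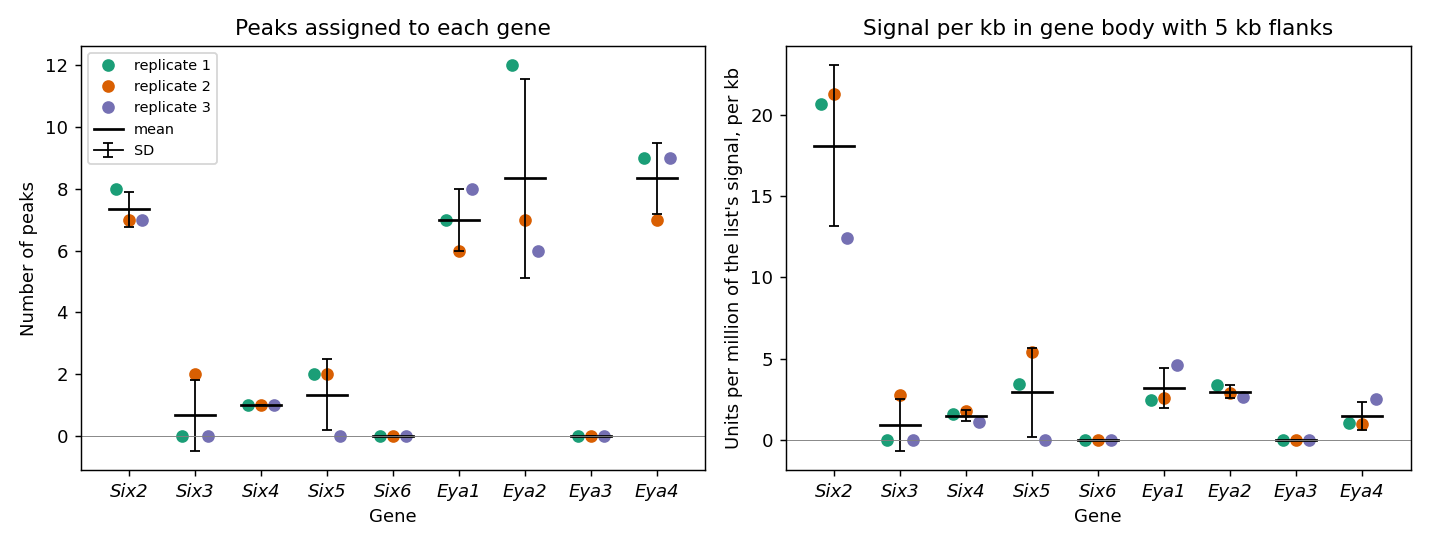
Peaks assigned to each gene (left, number) and signal per kb of the gene body with 5 kb flanks (right, ppm of the summed signal of that replicate's list, per kb). Points are the 3 replicates, black lines the mean and bars the SD; Six2 stands above the other members in signal per kb in each replicate, at 20.6, 21.2 and 12.4, while Six6 and Eya3 stand at 0.

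Member peaks were of ordinary length. Their median was 2825, 3485 and 3569 bp in replicates 1, 2 and 3, beside 2981, 3682 and 3352 bp in the whole lists. Their median percentile by total signal, the pileup of fragments summed along a peak, was 49.6, 46.7 and 60.3, on average 52.2 ± 7.16 (SD, n = 3). In a whole list the median stands at 50 by construction. At or above percentile 90 stood 4, 5 and 6 member peaks, or 10.3, 15.6 and 19.4% of them, where a list has 10%. Merged over the replicates, the peaks formed 46 regions. A peak of every replicate stood in 20 of them (43.5%), beside 46.3% of all 19251 regions. Of the others, 10 were in a pair of replicates and 16 in a single one.

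Six2 carried the densest signal of the family. Its body is 3.998 kb on chromosome 17, on the minus strand from 85684277 to 85688274, and peaks covered 100, 95.8 and 64.3% of the body with its 5 kb flanks in replicates 1, 2 and 3, on average 86.7 ± 19.5% (SD, n = 3). By this mean, Six2 ranked 9 of the 21755 protein-coding genes. The flanks are the same for every gene, so a wide peak fills the window of a short gene more readily, and the 11687 genes under 20 kb place Six2 at rank 9 as well. Per kb of that window, Six2 held 20.6, 21.2 and 12.4 ppm of the list's signal (parts per 1000000 of the summed total signal), against at most 5.40 for any other member in any replicate. Every replicate of Six2 thus lay above every replicate of the others on this scale, which divides by a window far longer in the Eya genes. Not divided by length, the mean was 253 ppm for Six2 and 484, 554 and 385 ppm for Eya1, Eya2 and Eya4. On that measure Six2 was still above Eya4 in replicates 1 and 2, and ranked 56 of the 11687 genes under 20 kb.

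The stretch over Six2 was called differently in the 3 replicates. In replicate 1, a single peak of 16023 bp, chr17:85677806-85693828, summed to 271717 in total signal at percentile 98.5 and covered the 5′ start site. Replicate 2 had 2 peaks there, of 8741 and 6412 bp at percentiles 92.1 and 91.8, which left 591 bp between them with the start site inside. In replicate 3 the 2 peaks, of 5764 and 6207 bp at percentiles 83.0 and 89.4, stood 4994 bp apart, and that gap held 100% of the gene body. The gap was 72.8% GC in replicate 2 and 58.3% GC in replicate 3. The signal flanked the start site in replicates 2 and 3 and ran across it in replicate 1. Replicate 3 was the one with less signal in GC-rich DNA, as given further on, and the part of GC content in these gaps was not tested.

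Upstream of Six2 the nearest protein-coding gene, Srbd1, lies 296 kb away, and a row of peaks stood in this stretch. Besides the region over the gene, 5 upstream regions had a peak in all 3 replicates. The most even of them was at -29.5 kb, chr17:85714486-85719483, at percentiles 78.9, 78.7 and 75.1, a mean of 77.6 ± 2.12 (SD, n = 3), and its highest pileups lay within 33 bp of each other. The region at -97.9 kb, chr17:85783831-85790522, stood at 87.2, 79.9 and 66.2, a mean of 77.7 ± 10.7, and that at -78.5 kb stood at 74.6, 50.1 and 54.8, a mean of 59.8 ± 13.0 (SD, n = 3 each). Both were highest in replicate 1. At -61.2 kb, chr17:85747063-85752417, the percentiles were 80.6, 11.9 and 62.8, so that the rank there depended on the replicate.

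The region at -9.89 kb from Six2 was of another shape. It lies in a noncoding RNA gene, AC166821.1, and was short and tall. It was called over 2179, 1916 and 1141 bp, with a highest pileup of 243, 115 and 73 fragments, at percentiles 99.4, 93.3 and 90.3 of maximum signal. By total signal it stood at 79.1, 43.8 and 2.57. The highest pileups lay within 65 bp of each other. Of the bases of the region 27.1% were marked as repeat in the reference, the share was higher still under the pileup, and their part in the height was not tested.

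**Figure D2:**
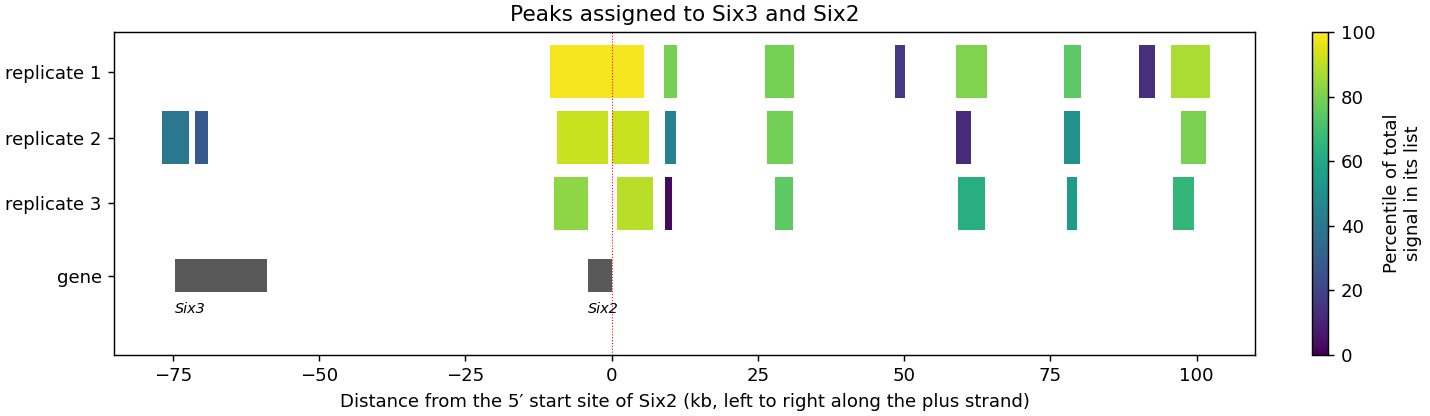
Peaks assigned to Six3 and Six2, drawn by distance in kb from the 5′ start site of Six2 (dotted line) along the plus strand, 1 row per replicate, coloured by percentile of total signal in the list, with the gene bodies as grey boxes. Peaks stand to the right of Six2 in all 3 replicates. They overlap its body in replicates 1 and 2 and lie on either side of it in replicate 3. Six3 has 2 peaks in replicate 2 and 0 in replicates 1 and 3.

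Six3, the neighbour of Six2, carried few peaks. The bodies of the pair are 55.0 kb apart on chromosome 17. Six3 had 2 peaks in replicate 2 and 0 in replicates 1 and 3. The peaks, chr17:85611375-85616061 and chr17:85617128-85619250, stood at percentiles 39.7 and 27.8 and were 55.7 and 58.8% GC. The first covered the 5′ start site and part of the antisense transcript Six3os1. In replicates 1 and 3 the nearest peak lay 48.5 and 49.1 kb from the body, at Six2. A single replicate supplied every Six3 peak.

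Six4 had 1 peak in each replicate, over the same stretch of the gene on chromosome 12, of 3635, 3556 and 3405 bp. Its region, chr12:73107744-73111975, began 1481, 1560 and 2308 bp from the 5′ start site, downstream of it, and its highest pileups lay in an intron within 148 bp of each other. The position was even but the rank was not. By total signal the peak stood at percentile 56.7, 45.8 and 1.297, a mean of 34.6 ± 29.4 (SD, n = 3), replicate 3 being close to the minimum of its list.

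Six5, on chromosome 7, had 2 peaks in replicates 1 and 2 and 0 in replicate 3. The first, at percentiles 23.7 and 41.3, lay within Dmpk in replicate 1 and ran from Dmpk towards Six5 in replicate 2. Dmpk ends 0.773 kb before Six5, and the highest pileup lay at -1714 bp from the Six5 start site in both replicates. The second, at 31.8 and 34.3, lay within Six5 with its highest pileup in an exon. The merged regions were 61.2 and 58.3% GC, above every region of Six2, Six4 and the Eya genes. In replicate 3 the nearest peak was 718 kb from the gene. Genes stand close together here, and a peak in the first position cannot be given to Six5 rather than Dmpk.

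Six6 and Eya3 had 0 peaks in 3 replicates. The peak nearest to the body of Six6 was 87.2, 87.5 and 87.6 kb away in replicates 1, 2 and 3, and the start site nearest to that peak was not that of Six6. For Eya3, a gene of 85.8 kb on chromosome 4, the nearest peak lay 220.5, 220.4 and 233 kb away. The lists keep the top 1% of signal blocks, and weaker H3K4me1 at these genes would not be listed.

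Eya1 lies alone on chromosome 1, from 14168954 to 14310235 on the minus strand, with no protein-coding gene within 443 kb. Its peaks formed 9 regions, 5 of them found in every replicate. The leading region, chr1:14179991-14188126, lay in the 3′ part of the gene, about 124 kb from the 5′ start site, and stood at percentiles 92.2, 90.3 and 93.2, a mean of 91.9 ± 1.45 (SD, n = 3). It spans exon and intron sequence, and the highest pileups fell in introns up to 4317 bp apart.

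Near the 5′ end of Eya1 were the other strong regions. In replicates 1 and 2 the peaks at chr1:14302122-14306110 and chr1:14302070-14306306 stood at percentiles 82.1 and 75.4. They ended 4125 and 3929 bp before the 5′ start site but covered an internal start site of Eya1 transcripts. In replicate 3 the peak ran from 14300989 to 14310405, over 9417 bp at percentile 95.9, and covered both. The next region inward, chr1:14285745-14300288, was a single peak of 14544 bp at percentile 97.1 in replicate 3. In replicates 1 and 2 it was called as 2 peaks, of which the stronger stood at 88.7 and 86.0. Replicate 3 was higher and wider at both places, where GC content was 39.3 and 41.6%. Downstream of the gene, the region chr1:14096055-14100790 stood at 49.6, 34.9 and 57.9, with its highest pileups within 56 bp.

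Eya2, on chromosome 2 from 165595032 to 165771727, had its strongest peaks in 2 regions of similar rank. The first, chr2:165594372-165605225, began at the 5′ end and stood at percentiles 96.4, 92.9 and 95.4, a mean of 94.9 ± 1.82 (SD, n = 3). Replicate 1 alone had its peak across the start site itself, those of replicates 2 and 3 beginning 1170 and 519 bp after it. The second, chr2:165650532-165659029, stood at 95.8, 93.1 and 92.8, a mean of 93.9 ± 1.64, and covered an internal start site of Eya2 in all 3 replicates. The means of the pair differed by less than the spread between replicates. Only 3 of the 13 Eya2 regions had a peak in all replicates, and the third, 29002 bp into the gene, stood at 69.7, 54.3 and 2.66.

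Eya4, the longest member at 248 kb on chromosome 10, had its stronger peaks deep in the gene. The leading region, chr10:23156651-23166646, lies about 191 kb from the 5′ start site. It was a single peak of 9787 bp at percentile 96.4 in replicate 3. In replicates 1 and 2 it was 2 peaks, of which the stronger stood at 70.7 and 58.6. The mean was 75.2 ± 19.3 (SD, n = 3), so this region was high in replicate 3 and of middle rank in the others. The region chr10:23200745-23204969 stood at 69.8, 67.5 and 81.5, a mean of 72.9 ± 7.48. Near the 5′ end, chr10:23335981-23340207 was at 41.5, 13.9 and 79.4. No replicate had a peak over the 5′ start site of Eya4, and the nearest were 3880, 11901 and 2921 bp away.

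**Figure D3:**
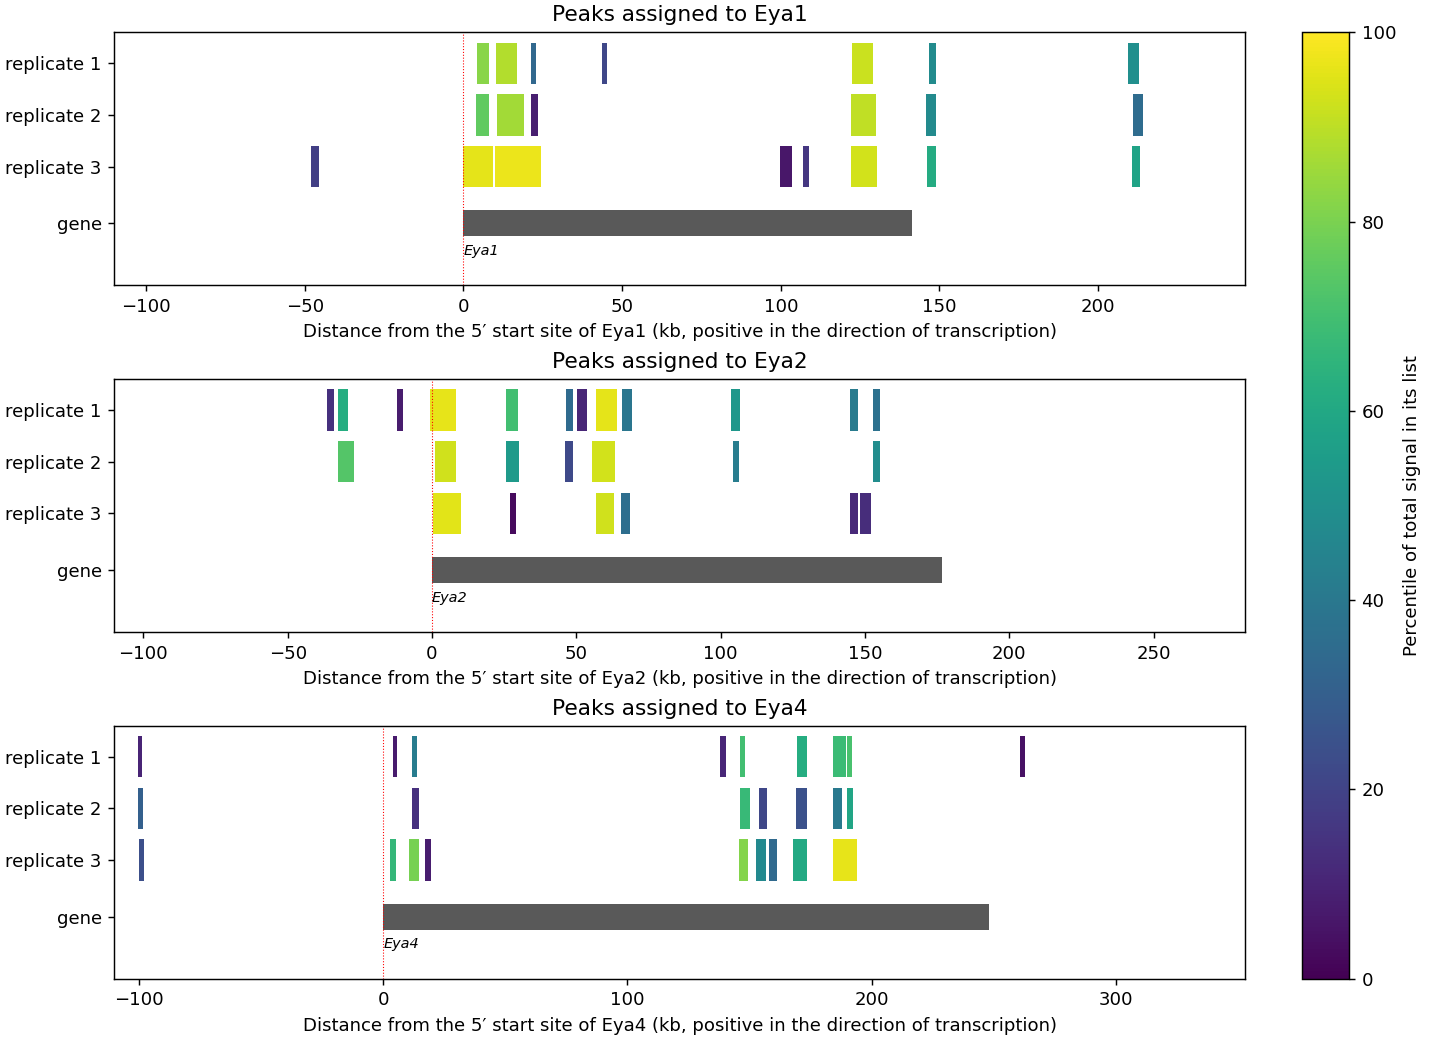
Peaks assigned to Eya1, Eya2 and Eya4 by distance in kb from the 5′ start site (dotted line), positive in the direction of transcription, 1 row per replicate, coloured by percentile of total signal in the list, with the gene body in grey. The strongest peaks stand at both ends of Eya1, at the start and about 59 kb into Eya2, and, in replicates 1 and 3, about 191 kb into Eya4, while in replicate 2 the strongest Eya4 peak stands about 147 kb in, at percentile 67.5.

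A peak covered the 5′ start site of 2, 1 and 1 members in replicates 1, 2 and 3, and no member's start site was covered in more than 1 replicate. Six2 and Eya2 were covered in replicate 1, Six3 in replicate 2 and Eya1 in replicate 3. Over all protein-coding genes the share of 5′ start sites covered was 5.31, 6.50 and 2.42%, and the difference was not tested. By the place of the highest pileup, 22, 19 and 19 member peaks were intronic, 13, 9 and 8 upstream, 3 in each replicate downstream, and 1 in each replicate exonic.

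The replicates differed along with GC content. Over all regions the median GC content was 47.3%. All 9 member regions below it that had a peak in every replicate, 5 of Eya1 and 4 of Eya4, stood at a higher percentile in replicate 3 than in replicate 2, by a median of 20.5 percentage points. Of the 11 at or above it, 6 of them of Six2, 3 stood higher in replicate 3, and the median difference was -3.55 points. In the whole series the shares higher in replicate 3 were 84.8% of 4486 regions below the median and 22.1% of 4430 at or above it. Regions missing from some replicates went the same way. All 6 member regions found in replicate 3 alone were below the median GC content, as were 97.0% of 2487 such regions in the series. All 6 found in replicates 1 and 2 alone, 4 of Eya2 and both of Six5, were above it, beside 92.3% of 2628 in the series. Replicate 1 minus replicate 2 gave medians of 6.69 and 7.34 points in the member regions below and above the median, and 8.75 and 2.98 points in the whole series. In the signal of whole genes, Eya4 held 265, 249 and 641 ppm of the list in its body with flanks in replicates 1, 2 and 3, and Eya1 held 368, 389 and 696, whereas Six2 held 289, 297 and 173.

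**Figure D4:**
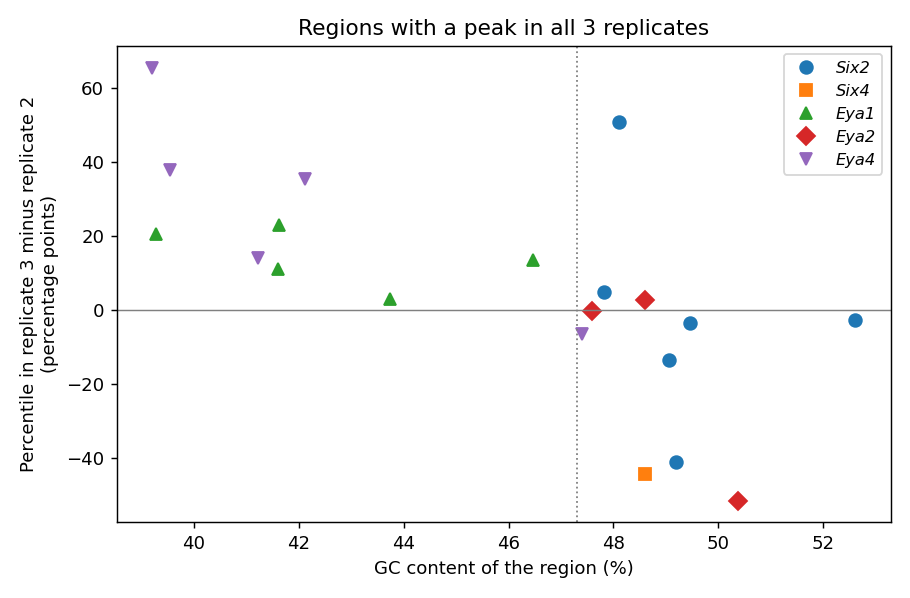
Percentile of total signal in replicate 3 minus that in replicate 2 (percentage points) against GC content (%) for the 20 member regions with a peak in all 3 replicates, 1 point per region, the dotted line being the median GC content of all regions. The regions of Eya1 and all but 1 of Eya4 lie to the left of the line and above 0, and the 2 lowest points are at -51.6 for Eya2 and -44.5 for Six4.

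Of the other genes of the network, 17 were listed, and 13 had a peak in all 3 replicates, beside 15.5% of all protein-coding genes, in a list chosen with results of these data known. The 13 also include Pax3 and Pax7, of neural crest and muscle, with 7.69, 7.49 and 12.7 and with 5.59, 6.65 and 2.62 ppm per kb of body with flanks. Tle3, a Groucho corepressor, held 14.1, 13.8 and 10.4 on the same scale. The DACH genes of the same network stood lower. Dach1 had a peak in replicate 3 only, at 0.196, and Dach2 had none. Pax2 and Pax8, which act in the kidney and ear, had a peak in replicates 1 and 2 but not in replicate 3. Six2 was above each of these genes per kb in replicates 1 and 2, and Pax3 was above Six2 in replicate 3. In the facial mesenchyme list, Prrx2 was above Six2 in each replicate, at 21.6, 25.2 and 15.0. Alx4 was above it in replicates 2 and 3 and Twist1 in replicate 3, and the rest of that list was below it throughout.

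The other tissues in which these genes act were read by their markers, as the number of genes with a peak in replicates 1, 2 and 3, beside 24.9, 22.6 and 19.6% of all genes. Of 9 surface ectoderm genes 6, 6 and 2 had one. Of 6 muscle precursor genes, 2 of which are also in the network list, 3, 3 and 3 had one. These were Myf5, Myog and Pax7 in each replicate, with 0 at Myod1, Msc and Tcf21. Of 6 cranial sensory neuron genes 1, 3 and 1 had a peak, and of 6 eye and forebrain genes 1, 1 and 0. The eye and forebrain list leaves out Pax6, which stands in the network list and had a peak in each replicate. The pad is a mixture, so more cells with the mark and more of the mark per cell cannot be told apart.

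Eya2 had the highest mean signal of the members in its window, not divided by length, at 634, 538 and 489 ppm, although Eya1 and Eya4 were above it in replicate 3. The protein-coding genes most like it over the 3 replicates, out of 3373 with signal in each, were Mtss1 at 671, 550 and 525, Kalrn at 628, 481 and 492, and Col4a2 at 581, 593 and 443. Their distances on the log2 scale were 0.13, 0.16 and 0.24, over 3 points each.

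A motif of SIX-family proteins, MEF3, was searched as TCAGGTTTC on both strands in the 300 bp around the highest pileup of each region. It was found in 1 of 46 member regions and in 0.722% of all 19251. The match was in a weak region at -35.02 kb from Eya2, with a peak in replicate 1 only at percentile 13.9. The sequence is printed on the plus strand with the match, on the minus strand, in capitals.
Eya2 -35.02 kb, chr2:165559986-165560054: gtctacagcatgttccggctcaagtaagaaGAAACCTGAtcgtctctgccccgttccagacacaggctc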

How the data were processed

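H3K4me1 CUT&Tag peak lists of 3 whisker pads were used. Per the methods and the submitters' processing notes, the authors worked on mm10 with Bowtie2 2.3, SAMtools 0.1.19 and bedtools, and called peaks per replicate with SEACR 1.3 without IgG, keeping the top 1% of signal blocks. The deposited signal columns give the total and the maximum fragment pileup of each peak, not scaled to depth, so signals were compared as percentiles within a list or in ppm of its summed signal. The peak lists carry no read depth, and the depth stated in the methods was not used here. A fixed share of blocks was kept, so peak number is no measure of enrichment. The lists held 16788, 12969 and 13998 peaks.

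Genes and 54050 protein-coding start sites came from GENCODE vM21, and sequence, GC content and repeats from the RefSeq copy of GRCm38. Peaks of the 3 lists were merged into regions where they shared at least 1 bp. Signal in a gene window was prorated by the overlapped length of a peak. Coordinates are 1-based. The members and lists were chosen with earlier results of these data known, so no test was run, and counts of genes stand beside the share of all genes. All 9 members are named, with the leading regions, adjacent genes, list genes and the 3 genes nearest in signal. The other regions described and the windows within 100 bp of pileup were chosen after the values were seen. Python 3.11.15 and pandas 2.3.3 were used, and the assignment was checked on simulated peaks. The sequence of 1 window and 1 marker gene are not reported here. Tle5 is listed as Aes in the annotation. Alternatives were other flanks and distances, other ways to find the nearest start site, stronger peaks only, joined peaks, other percentiles, a stricter overlap, and each replicate left out.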

Additional observations from a re-analysis of the deposited data

How the results depend on the processing

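Of 97 alternative values, 47 over all members and 38 counts at single genes stayed within 1.5 times the count or within the SD between replicates, and 5 and 7 did not. With the stronger 50% of each list the members held a mean of 17 peaks of a median length of 4818 bp, and 11 regions were in all replicates, since fewer peaks entered. With the strongest 10000 peaks the median length was 4090 bp. By maximum signal the median percentile of member peaks was 62.0, and the cause was not tested. With no flank, 4 members had a peak in all replicates, because the peaks of Six2 in replicate 3 lie beside the body. Leaving out replicate 3 gave 6 such members, with Six5, and 28 shared regions in place of 20, and without replicate 2 Six3 had 0 peaks. The shared regions ranged from 22 to 28 over the 3 sets of 2 replicates. Read depth and IgG were not used, and no test was run. No paired analysis was possible because IgG, the only group with matching pad numbers, was not analysed here.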

Other observations

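Beyond the limit of 100 kb, the stretch upstream of Six2 held further peaks whose nearest protein-coding start site was that of Six2. Up to 200 kb from the body there were 6, 6 and 5 more in replicates 1, 2 and 3. The highest of them stood at percentiles 98.2, 97.5 and 99.1, at 111, 110 and 107 kb from the body, with lengths of 10.4, 10.6 and 13.8 kb. In replicates 2 and 3 this was above every peak counted for Six2 within 100 kb. Eya1 gained 3, 1 and 4 peaks in the same way, the highest at percentiles 95.3, 93.8 and 98.5 about 192 kb from the body. Eya4 gained 1 in each replicate, at percentiles 64.8, 51.3 and 65.8 about 197 kb away. Six3, Six4, Six5, Six6, Eya2 and Eya3 gained 0. A nearest start site does not show which gene a region acts on.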
